A study of Mus musculus with 32 samples.

Results

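Messenger RNA was measured in gastrocnemius, the main calf muscle, in which fast fibres prevail, and 9 genes of fat cells were followed through all 32 muscle libraries: Lep, Adipoq, Cfd, Retn, Fabp4, Plin1, Cidec, Lipe and Pparg. They were chosen by gene symbol, each symbol stood in exactly 1 entry of the table, and they make up 9 of its 16634 genes. All 9 were among the 11975 genes tested, which reached at least 1 FPKM in at least 4 libraries. The mutants carried the Sf1-Cre transgene with both Sirt1 alleles floxed, and the controls carried the floxed alleles without Cre, so the effects of the transgene and of the deletion cannot be told apart. All mice were 10 weeks old and of mixed genetic background, and muscles were taken at Zeitgeber time 0, 6, 12 or 18 h (ZT0 is lights on), with 4 mice for each genotype and time. The Sf1 driver directs Cre to neurons of the ventromedial hypothalamus, a centre of energy balance, and is also known to be active in pituitary, adrenal cortex and gonads. The site of the deletion was not measured, and Sirt1 RNA in muscle, at 5.20 ± 0.731 FPKM in mutants and 5.47 ± 0.506 FPKM in controls (SD, n = 16 each), says nothing about the neurons.

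FPKM is a level per length of transcript and per mapped fragment total, so levels can be set side by side between genes. The absolute depth of the libraries is unknown, and relative depth, read from steps in low values, ran from 0.814 to 1.35, with a mean of 1.02 ± 0.142 in mutants and 0.994 ± 0.144 in controls (SD, n = 16 each). The summed level of 10 genes of fast fibres lay between 64528 and 127760 FPKM in mutants and between 85473 and 141140 FPKM in controls, which was 14% to 24.4% of all FPKM of a library in mutants and 18.9% to 26.8% in controls. The libraries are numbered 0 to 3 within each group, as in the column names, and the number does not link mice of different groups.

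Fat cells store triglyceride in a single large droplet and release it as fatty acids when the body needs fuel. They also signal to the brain, liver and muscle through secreted proteins, of which leptin reports the size of the fat store and adiponectin favours the use of fatty acids and the response to insulin. Muscle fibres themselves make little or none of these proteins, whereas fat cells lie between muscle bundles and around the muscle. In RNA from whole muscle, fewer fat cells and less RNA per fat cell cannot be told apart.

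Of the 9 genes, 4 encode secreted proteins. Lep encodes leptin, Adipoq adiponectin, Cfd adipsin, a serine protease of the complement system, and Retn resistin. Another 4 handle lipid inside the cell. Fabp4 encodes a fatty acid binding protein, Plin1 the perilipin that coats the droplet and guards it from lipases, Cidec a droplet protein that promotes the fusion of droplets, and Lipe the hormone-sensitive lipase. Pparg encodes the nuclear receptor that drives the differentiation of fat cells and acts on the promoters or enhancers of many of the others.

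In mm10, Lep (XLOC_017079) lies on chromosome 6 from 29060221 to 29073876, Adipoq (XLOC_007890) on chromosome 16 from 23146536 to 23157968, and Plin1 (XLOC_019946) on chromosome 7 from 79721164 to 79732776. The other entries are Retn (XLOC_020493, chromosome 8), Fabp4 (XLOC_013645, chromosome 3), Cidec (XLOC_018069) and Pparg (XLOC_017465), both on chromosome 6, Lipe (XLOC_019601, chromosome 7) and Cfd (XLOC_001621, chromosome 10). Nearly all of these intervals follow the RefSeq gene, and the values of 2 entries are less certain. The Cfd entry spans 672.3 kb and holds 44 other coding genes of RefSeq, 38 of which have entries of their own, whereas the RefSeq gene Cfd spans 1.80 kb. The Lipe entry spans 189.6 kb and holds 3 other coding genes, 2 of them with entries of their own. The sources used here do not say how reads in these intervals were shared out.

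Since the 9 genes moved together from mouse to mouse, the 250 bases before the start were read for those whose results are described most fully, from the RefSeq promoter table (GRCm38.p6), which held 12 starts for 8 of the 9 genes; Fabp4 was not among them. Each line runs 5′ to 3′ on the strand of the gene, and capitals mark matches, on either strand, to the letters TTGCNNAA of C/EBP factors, GGGCGG of the GC box, CCAAT of the CCAAT box, TATAAA of the TATA box or the response element of PPARG and its partner RXR, which is AGGTCA repeated after 1 further base. The windows are chr6:29059971-29060220 (plus strand) for Lep, chr16:23146286-23146535 (plus) for Adipoq, chr7:79732777-79733026 (minus) for Plin1 and chr6:115421816-115422065 (plus), the most downstream of 3 starts, for Pparg.
Lep: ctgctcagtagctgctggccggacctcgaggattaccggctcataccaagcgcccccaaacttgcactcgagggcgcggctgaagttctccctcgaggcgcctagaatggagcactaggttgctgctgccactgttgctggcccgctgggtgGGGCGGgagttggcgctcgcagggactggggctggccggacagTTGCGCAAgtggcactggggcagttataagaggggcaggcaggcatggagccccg
Adipoq: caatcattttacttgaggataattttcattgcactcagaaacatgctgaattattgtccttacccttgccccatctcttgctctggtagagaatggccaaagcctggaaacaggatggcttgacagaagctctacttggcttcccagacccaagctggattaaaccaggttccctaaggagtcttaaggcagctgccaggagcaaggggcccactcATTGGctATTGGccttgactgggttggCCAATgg
Plin1: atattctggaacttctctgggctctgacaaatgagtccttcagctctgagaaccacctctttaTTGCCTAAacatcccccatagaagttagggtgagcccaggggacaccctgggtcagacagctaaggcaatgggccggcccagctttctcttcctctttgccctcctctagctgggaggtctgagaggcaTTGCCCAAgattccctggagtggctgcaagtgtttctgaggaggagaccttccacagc
Pparg: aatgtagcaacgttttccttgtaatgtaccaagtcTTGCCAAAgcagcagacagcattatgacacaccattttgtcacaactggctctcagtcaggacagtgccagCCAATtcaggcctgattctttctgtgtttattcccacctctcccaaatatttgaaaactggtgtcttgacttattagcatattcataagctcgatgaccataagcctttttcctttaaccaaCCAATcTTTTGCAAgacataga

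The Lep window held the C/EBP letters as TTGCGCAA, which reads the same on both strands, at bases -55 to -48 before the start, and 1 GC box. Plin1 held the C/EBP letters at 2 places, TTGCCTAA and TTGCCCAA, and the Pparg window held them as TTGCCAAA and, on the other strand, as TTTTGCAA. The Adipoq window held 3 CCAAT matches, 2 of them on the minus strand, and none of the other motifs. Of the 12 windows read, 4 held the C/EBP letters, 1 each for Lep, Plin1, Cidec and Pparg. The other window of Cidec, the other 2 of Pparg and those of Adipoq, Cfd, Retn and Lipe held none. The Pparg window printed is thus the only one of its 3 with the C/EBP letters, and the other 2 held other motifs. Among all 32851 promoter windows of this length, 9.56% held the C/EBP letters, 33.8% CCAAT, 32.7% the GC box, 12.4% TATAAA and 0.0335% the PPARG element, which none of the 12 windows of these genes held. Since the windows printed were chosen by gene and start, their matches are no measure of how common the letters are among fat cell genes. These matches describe letters and do not show that a factor was bound.

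Levels of the 9 genes spanned from under 1 FPKM to 1827 FPKM. The order of the mean levels over 32 libraries was Fabp4 (758 ± 379 FPKM), Cfd (243 ± 111 FPKM), Adipoq (35.5 ± 20.8 FPKM), Cidec (27.7 ± 20.01 FPKM), Lipe (27.1 ± 17.6 FPKM), Plin1 (22.6 ± 17.5 FPKM), Retn (14.7 ± 11.5 FPKM), Pparg (5.49 ± 3.22 FPKM) and Lep (4.16 ± 2.96 FPKM; SD, n = 32 for each). Fabp4 and Cfd stood above the rest: the lowest Fabp4 value, 361 FPKM, exceeded the highest value of each gene other than Cfd, and Cfd was at least 3.08 times Adipoq in every library. The neighbours from Adipoq to Retn, and likewise Pparg and Lep, differed by less than 1 SD between libraries, which does not compare genes within a library. Within libraries, Plin1 was at most 0.942 times Adipoq. Cidec reached 1.06 times, Lipe 1.13 times and Retn 1.01 times Adipoq. No gene was listed at 0 in any library.

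**Figure D1:**
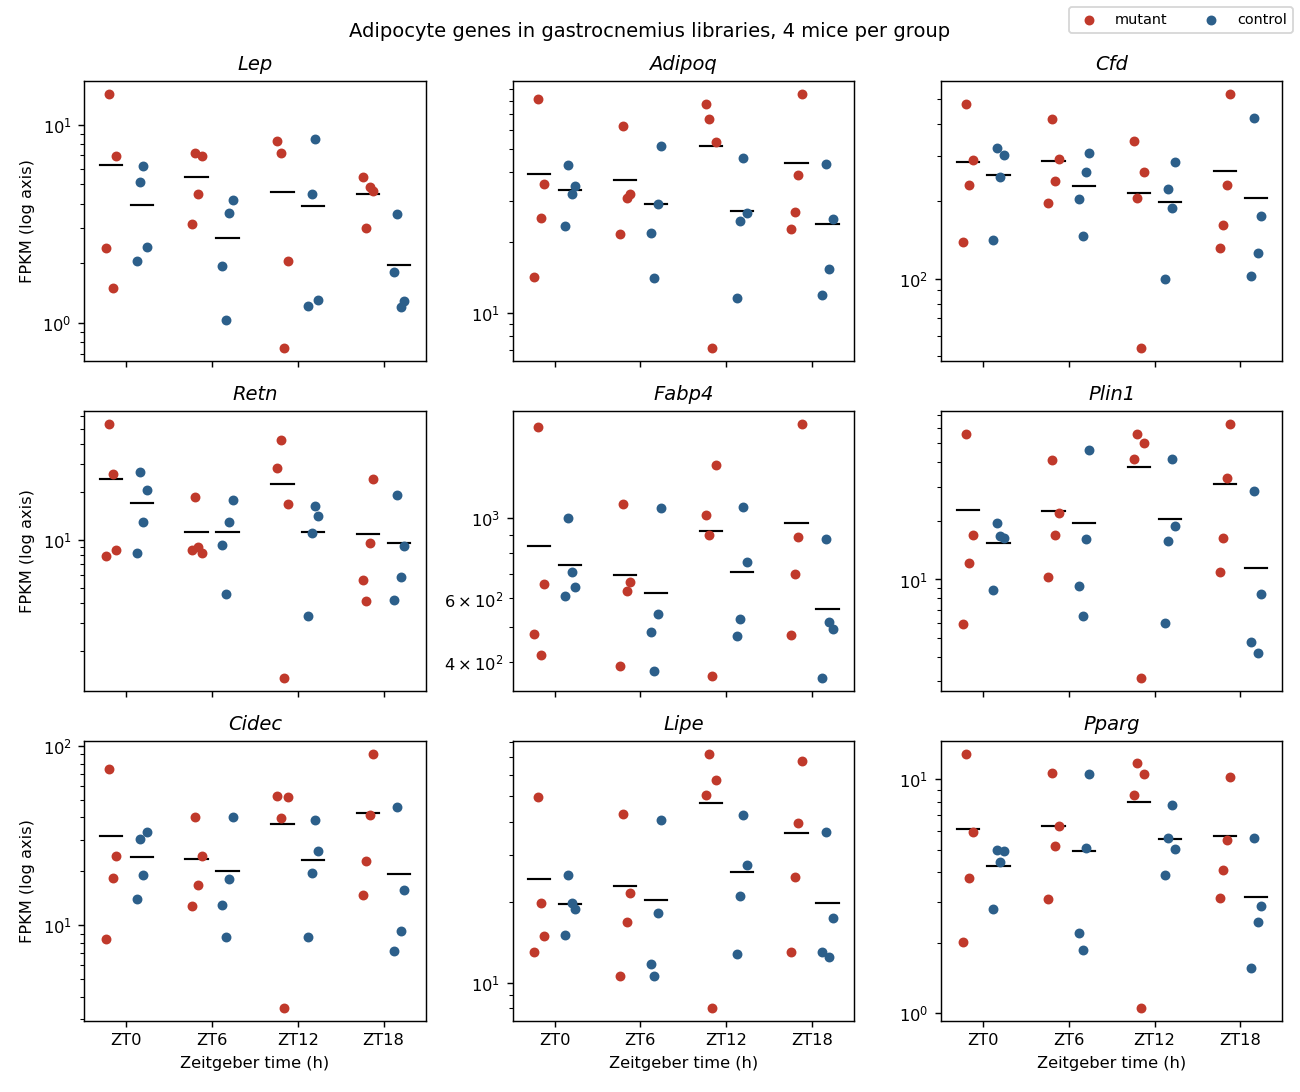
FPKM of the 9 genes (log axis) by Zeitgeber time, with 1 point per mouse, 4 mice per group, mutants left of controls and the group mean as a black line. Points of both genotypes overlap at each time in each panel, and mutant ZT12 library 2 is the lowest point in 8 panels, all but Fabp4.

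Leptin RNA differed widely between mice of the same group. At ZT0, Lep was at 2.37, 14.3, 1.49 and 6.95 FPKM in mutants, against 2.04, 5.16, 6.17 and 2.42 FPKM in controls. At ZT6 it was at 3.17, 7.18, 4.47 and 6.92 FPKM in mutants, against 1.94, 1.03, 3.57 and 4.17 FPKM in controls. The mutant group at ZT0 held the highest Lep value of all 32 mice and also a value below each control of that time, and at ZT6 the mutant values overlapped the upper part of the control values. At ZT12, Lep was at 8.29, 7.22, 0.746 and 2.06 FPKM in mutants, against 1.22, 4.45, 8.51 and 1.31 FPKM in controls. At ZT18 it was at 5.45, 3.02, 4.83 and 4.65 FPKM in mutants, against 1.81, 3.53, 1.21 and 1.29 FPKM in controls. At ZT18, 3 mutant libraries lay above each control library and the other mutant lay below the highest control, and at ZT12 the groups overlapped over most of their range.

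Adiponectin RNA varied as widely, at a higher level. Adipoq at ZT0 was at 14.3, 81.8, 25.5 and 35.4 FPKM in mutants, against 23.5, 42.7, 32.3 and 34.7 FPKM in controls. At ZT6, Adipoq was at 21.6, 62.3, 30.8 and 32.2 FPKM in mutants, against 21.9, 14.1, 29.2 and 51.2 FPKM in controls. In both comparisons 1 mutant lay above every control and 1 mutant lay within or below the lower controls. At ZT12, Adipoq was at 77.7, 66.8, 7.11 and 53.2 FPKM in mutants, against 11.6, 24.6, 45.9 and 26.6 FPKM in controls. At ZT18, Adipoq was at 22.9, 26.8, 38.6 and 85.8 FPKM in mutants, against 11.9, 43.3, 15.4 and 25.0 FPKM in controls. The mutants at ZT12 held 3 values above every control and, in library 2, the lowest Adipoq value of the series.

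The droplet coat gene Plin1 had the widest spread on the log scale between mice of a group among the 9 genes. Plin1 at ZT0 was at 5.92, 55.9, 12.1 and 17.0 FPKM in mutants, against 8.85, 19.5, 16.8 and 16.4 FPKM in controls. At ZT6, Plin1 was at 10.3, 41.3, 16.9 and 22.0 FPKM in mutants, against 9.27, 6.47, 16.1 and 46.1 FPKM in controls. The same mutant libraries (number 1 at both times) that were high for Adipoq were high for Plin1. At ZT12, Plin1 was at 41.5, 56.2, 3.11 and 50.2 FPKM in mutants, against 5.97, 15.8, 41.5 and 18.8 FPKM in controls. At ZT18, Plin1 was at 10.9, 16.4, 33.2 and 63.2 FPKM in mutants, against 4.76, 28.4, 4.19 and 8.44 FPKM in controls. At ZT18 the lowest mutant lay above 3 of the 4 controls, and the groups still overlapped because control library 1 was high.

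The spread between mice was the leading feature of all 9 genes. The SD between mice of a group, on the log2(FPKM + 1) scale, ran from 0.68 for Fabp4 to 1.16 for Plin1, against a median of 0.18 over all genes tested. At least 98.1% of the genes tested had a lower SD than each of the 9, and Plin1, Cidec (SD 1.08) and Retn (SD 1.06) ranked 65th, 76th and 82nd from the top of 11975. The highest value of a gene was 40.1 times its lowest for Retn, 26.3 times for Cidec, 20.3 times for Plin1, 19.2 times for Lep, 12.2 times for Pparg, 12.1 times for Adipoq, 9.78 times for Cfd, 8.99 times for Lipe and 5.06 times for Fabp4. The mutant ZT12 group had the widest range for each gene but Fabp4, whose widest range was in the mutant ZT0 group. In the mutant ZT12 group, Retn was at 28.6, 42.5, 1.34 and 16.9 FPKM, a range of 31.6 times, and Fabp4 in the mutant ZT0 group was at 479, 1792, 419 and 658 FPKM, a range of 4.28 times.

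**Figure D2:**
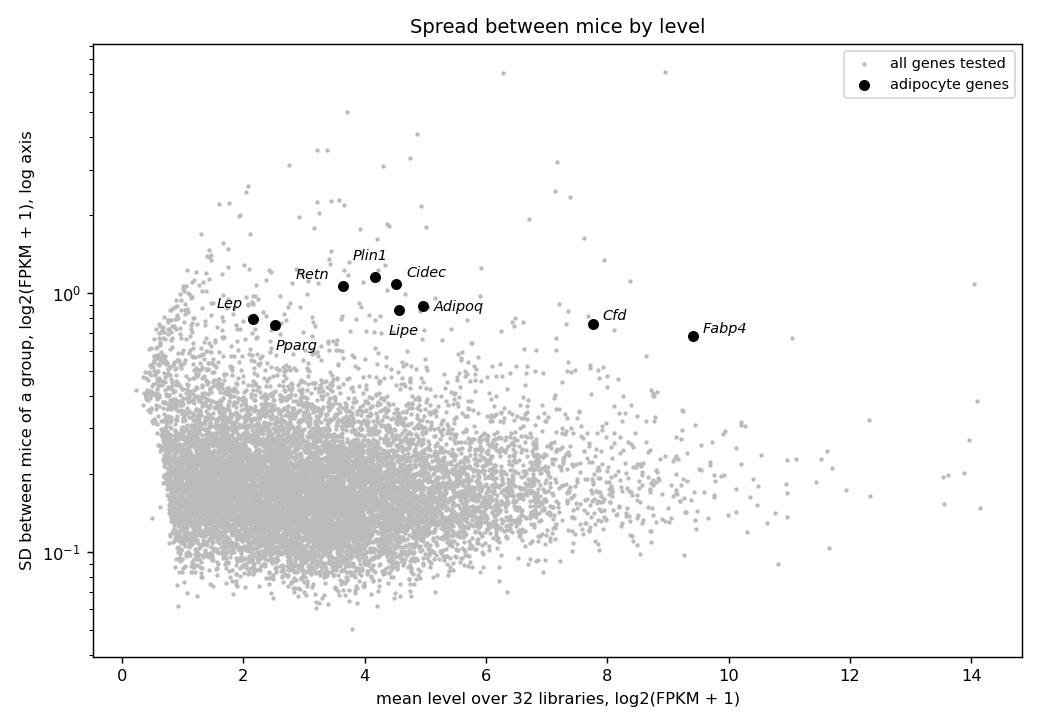
SD between mice of the same group (log axis) against the mean level over 32 libraries, both on log2(FPKM + 1), for 11975 genes tested (grey) and the 9 fat cell genes (black). The 9 genes lie near the upper edge of the cloud, between 0.68 and 1.16, whereas the median gene is at 0.18.

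The same mice were high, or low, for gene after gene. Mutant ZT0 library 1 was among the 5 highest of 32 for all 9 genes, with ranks from 1 to 5. Mutant ZT12 library 2 was the lowest or the next lowest for all 9. Control ZT18 library 0 and control ZT6 library 1 were among the 5 lowest for 7 genes each. Mutant ZT18 library 3 had the highest Adipoq, Cfd, Fabp4, Plin1 and Cidec values but ranked only 12th for Lep at 4.65 FPKM. The mutant ZT12 group held values near both ends of the range, with Pparg at 8.56, 11.7, 1.05 and 10.5 FPKM.

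Across the 32 libraries, with the mean of each group removed, all 36 pairs of the 9 genes rose and fell together. Spearman's rho lay between 0.581 and 0.975 with a median of 0.892, and Pearson's r on log2(FPKM + 1) between 0.611 and 0.979 with a median of 0.905. By permutation within groups (100000 draws, 2-sided), the largest p adjusted over 36 pairs by the Benjamini-Hochberg method was 0.00454 for rho and 0.00229 for r. The closest pair was Plin1 with Cidec (rho 0.975, r 0.979), both proteins of the droplet surface, followed by Plin1 with Lipe (rho 0.972, r 0.973) and Adipoq with Cidec (rho 0.970, r 0.979), each with an adjusted p of 1.29e-05 for rho and 1.24e-05 for r. Without the 2 libraries farthest from the median of the first gene of each pair, r lay between 0.494 and 0.970. With the group means left in, rho lay between 0.540 and 0.962.

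**Figure D3:**
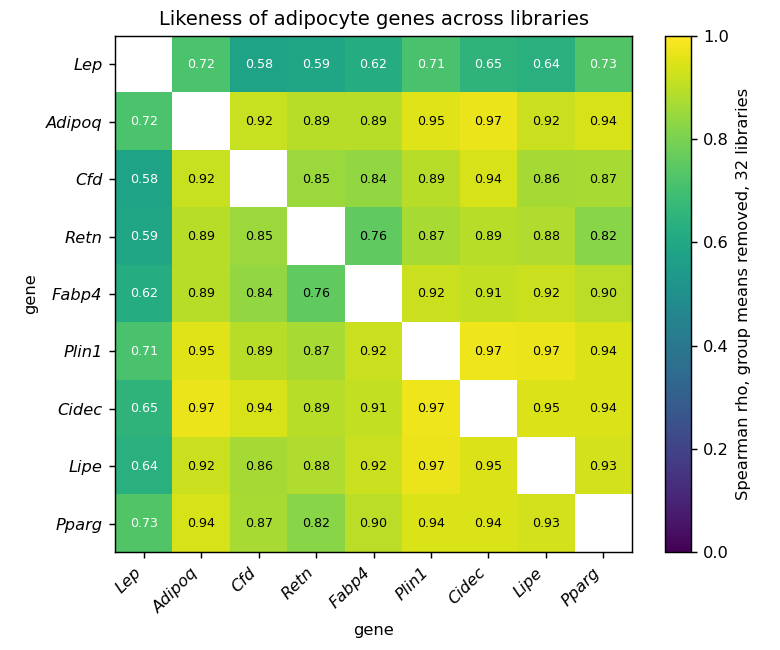
Spearman's rho for each pair of the 9 genes over 32 libraries after the group means were removed, from dark (0) to light (1). The row and column of Lep (0.581 to 0.727) are darker than those of the other 8 genes.

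Lep followed the others least closely. Its rho with the other 8 genes ran from 0.581 (Cfd) to 0.727 (Pparg) with a median of 0.643, whereas the median was 0.918 for Adipoq, 0.942 for Cidec and 0.860 for Retn, the next lowest after Lep. Between Lep and Adipoq, rho was 0.718 and r 0.757 (within-group permutation, adjusted p = 4.8e-05 for rho and 1.24e-05 for r), and r was 0.676 without the 2 libraries farthest from the median of Lep. In a ranking of all genes tested by rho with Lep, 14 genes stood above Pparg and 20 above Adipoq, Lep itself counted in both. Among all genes tested, the gene itself left out, 5 had a rho of at least 0.8 with Lep, against 113 with Adipoq. The difference between these rho values was not tested.

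The genes most like Lep by rho were Npr3, the clearance receptor of natriuretic peptides (rho 0.840, r 0.881), Cdsn, which encodes corneodesmosin (rho 0.827, r 0.8286), Sncg, gamma-synuclein (rho 0.825, r 0.849), Heph, the iron oxidase hephaestin (rho 0.817, r 0.819), and the serpin gene Serpina3c (rho 0.806, r 0.775). Outside the 9 genes, those most like Adipoq were Ces1d, a carboxylesterase (rho 0.954, r 0.955), Cebpa, a transcription factor that works with PPARG in fat cells (rho 0.946, r 0.963), A530016L24Rik (rho 0.938, r 0.940), Dgat2, an enzyme of triglyceride synthesis (rho 0.937, r 0.952), and Tusc5 (rho 0.935, r 0.960). All were picked as the highest of 11975 genes over 32 libraries, so their rho values are a description.

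The genes did not all change in the same proportion. From the library with the lowest Adipoq (mutant ZT12 library 2, 7.11 FPKM) to that with the highest (mutant ZT18 library 3, 85.8 FPKM), Adipoq differed 12.1-fold. Between these 2 libraries, Cidec differed 26.3-fold, Plin1 20.3-fold, Retn 17.9-fold, Cfd 9.78-fold, Pparg 9.65-fold, Lipe 8.45-fold, Lep 6.23-fold and Fabp4 4.99-fold. Over all libraries the slope of log2 values on those of Adipoq was steepest for Plin1 (1.32), Cidec (1.19) and Retn (1.13), close to 1 for Pparg (0.96), Lep (0.94) and Lipe (0.90), and shallowest for Cfd (0.72) and Fabp4 (0.66). Fabp4 is also known from capillary endothelium. The summed level of 8 endothelial genes lay between 156 and 241 FPKM in mutants and between 168 and 243 FPKM in controls, a far narrower range than that of Fabp4, and their part in the shallow slope was not tested. The ratio of Lep to Adipoq ran from 0.0388 to 0.238 (median 0.120) in mutants and from 0.0492 to 0.191 (median 0.0877) in controls, and the ratio of Cidec to Adipoq from 0.486 to 1.06 (median 0.684) in mutants and from 0.593 to 1.05 (median 0.671) in controls. Cidec thus kept its ratio to Adipoq within 2.19-fold over all libraries and Lep within 6.14-fold. Retn had the widest range of this ratio, 6.63-fold.

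Summed levels of other fat cell genes, brown ones among them, moved with Adipoq. The summed level of 22 further fat cell genes lay between 386 and 1232 FPKM in mutants and between 417 and 859 FPKM in controls. None was at 0 in any library. Their sum followed Adipoq with rho 0.929 and r 0.913 (within-group permutation, adjusted p = 3.75e-05 for both over 15 gene lists), and r was 0.901 without the 2 extreme libraries. Gpd1, which muscle also expresses, had the highest mean of the 22, at 262 FPKM, against a median sum of 559 FPKM. The sum is thus not that of fat cells alone. The sum of 8 brown fat cell genes lay between 2.76 and 298 FPKM in mutants and between 2.25 and 200.3 FPKM in controls (rho 0.835, r 0.854, adjusted p = 3.75e-05 for both by within-group permutation; r 0.820 without the 2 extreme libraries). Of these 8 genes, 5 were among the genes tested, and Cpn2, Lhx8 and Zic1 were too low. Cpn2 was listed at 0 in 8 libraries and Lhx8 in 7, and Ucp1 and Cidea made up most of the sum. Zic1, another brown fat cell gene, ran only from 0.133 FPKM in mutant ZT12 library 3 to 0.419 FPKM in mutant ZT0 library 0. Ucp1 was highest in the first of these libraries and at 1.06 FPKM in the second. Ucp1 encodes the uncoupling protein by which brown and beige fat cells make heat. It ran from 0.418 FPKM in control ZT6 library 1 to 165 FPKM in mutant ZT12 library 3, and was at 65.4 FPKM in mutant ZT0 library 1 but at 0.732 FPKM in mutant ZT12 library 2. Cidea, a droplet protein typical of brown fat cells and a relative of Cidec, ran from 0.504 to 114 FPKM.

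Lymphocyte genes split the libraries into 2 sets. The summed level of 13 B and T cell genes lay between 1.33 and 3.08 FPKM in 17 libraries (6 mutant and 11 control) and between 24.1 and 93.4 FPKM in the other 15 (10 mutant and 5 control), with no library in between. Adipoq ran from 7.11 to 45.9 FPKM (median 22.9) in the lower set and from 24.6 to 85.8 FPKM (median 42.7) in the higher set. Over all 32 libraries, the sum had rho 0.549 and r 0.597 with Adipoq (within-group permutation, adjusted p = 0.00675 and 0.00318; r 0.478 without the 2 extreme libraries). These values span both sets, and a relation within a set was not tested. The 5 libraries with the highest Adipoq all lay in the higher set, with sums from 35.9 to 81.5 FPKM, and the 5 with the lowest Adipoq all in the lower set, with sums from 1.33 to 2.94 FPKM. Of the 13 genes, 11 were listed at 0 in at least 1 library, among them the B cell receptor gene Cd79b in 1 and the T cell gene Cd3g in 9. The sum of 4 genes of lymph node stroma lay between 0.453 and 30.1 FPKM in mutants and between 0.415 and 38.5 FPKM in controls, with rho 0.592 and r 0.614 with Adipoq (within-group permutation, adjusted p = 0.00306 and 0.00216; r 0.502 without the 2 extreme libraries). The part of tissue other than muscle in the levels of the 9 genes was not tested.

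**Figure D4:**
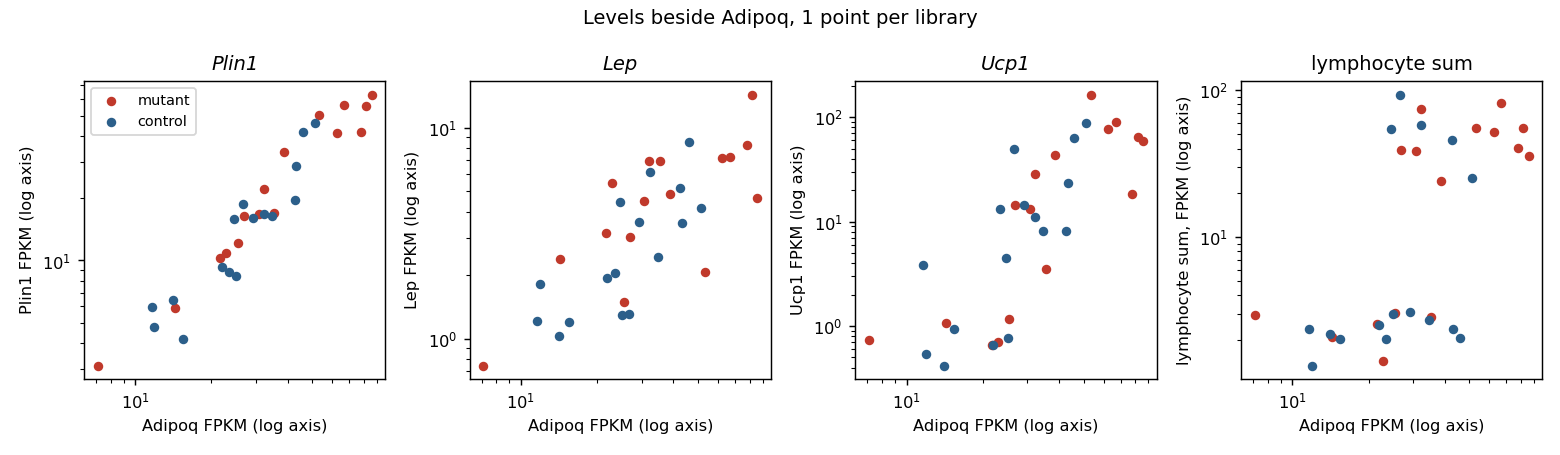
Levels of Plin1, Lep, Ucp1 and the sum of 13 lymphocyte genes against Adipoq, all in FPKM on log axes, with 1 point per library (16 mutant, 16 control). Plin1 follows Adipoq closely, Lep more loosely, Ucp1 over a range from 0.418 to 165 FPKM, and the lymphocyte sum falls into 2 separate bands, up to 3.08 FPKM and from 24.1 FPKM.

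Among 7 lists for muscle fibres and other resident cells, only the fast fibre genes passed, with a negative sign. The sum of 10 fast fibre genes passed by rho (-0.469, adjusted p = 0.0474) but not by r (-0.512, adjusted p = 0.0887; within-group permutation), with r at -0.432 without the 2 extreme libraries. It lay between 64528 and 100600 FPKM in the 5 libraries with the highest Adipoq, against 108300 to 141140 FPKM in the 5 with the lowest. Sums of preadipocyte and stromal genes (rho -0.109, r -0.073, adjusted p = 0.682 and 0.723), macrophage genes (rho 0.186, r 0.149, adjusted p = 0.524 and 0.556) and Schwann cell genes (rho 0.018, r 0.076, adjusted p = 0.935 and 0.723) did not pass the same permutation test. The same holds for endothelial genes (rho 0.407, r 0.508, adjusted p = 0.101 and 0.0622), slow fibre genes (rho 0.300, r 0.424, adjusted p = 0.252 and 0.168) and Krt10, the 1 keratinocyte gene measured (rho -0.133, r -0.209, adjusted p = 0.640 and 0.552).

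The genotype comparison asks whether muscle levels of these RNAs differed between mutants and controls, wherever Sirt1 was deleted. Over all times, none of the 9 genes passed an adjusted p of 0.05 (limma, Benjamini-Hochberg over all genes tested), where 3 of 11975 genes or 0.0251% passed. Lep averaged 5.20 ± 3.35 FPKM in mutants and 3.11 ± 2.14 FPKM in controls (SD, n = 16 each), a log2 difference of 0.56 (SE 0.265, 95% interval 0.01 to 1.10, limma adjusted p = 0.756). Its unadjusted p of 0.0451 in limma was the only one under 0.05 among the 9 genes, a level that 6.48% of all genes tested reached. It stayed under 0.05 in 18 of the 38 alternatives that tested Lep, while Plin1 came under it in 3 of 39 and Adipoq, Cidec, Lipe and Pparg in 1 of 39 each. Adipoq averaged 42.7 ± 25.1 FPKM in mutants and 28.4 ± 12.5 FPKM in controls, a log2 difference of 0.45 (SE 0.296, limma adjusted p = 0.770). Plin1 averaged 28.5 ± 20.1 FPKM in mutants and 16.7 ± 12.5 FPKM in controls, a log2 difference of 0.65, which was the largest of the 9 (95% interval -0.14 to 1.44, limma adjusted p = 0.762).

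All 9 genes had higher means in mutants over all times, as did 51.3% of the genes tested, and the median log2 difference was 0.41, against 0.00 over all genes tested. Since the 9 genes moved together from mouse to mouse, these 9 directions are not independent. The differences of the other genes were 0.45 for Cidec, 0.41 for Lipe, 0.39 for Pparg, 0.28 for Fabp4, 0.20 for Retn and 0.18 for Cfd, with limma adjusted p-values up to 0.913. The 95% intervals of 8 genes held 0, and that of Lep ended just above it. For Retn the interval ran from -0.52 to 0.93 and for Cfd from -0.34 to 0.69, so the spread between mice leaves room for differences of this size in either direction. Lymphocyte sums had a median of 37.2 FPKM in mutants and 2.62 FPKM in controls, with 10 mutant and 5 control libraries in the higher set. Brown fat cell sums had medians of 43.3 FPKM in mutants and 25.0 FPKM in controls. No tested gene of either list passed between genotypes over all times, where 0.0251% of all genes did. Both medians were higher in mutants at ZT6, ZT12 and ZT18. At ZT0 they were lower, at 2.93 FPKM in mutants against 24.2 FPKM in controls for lymphocyte genes, and 8.51 against 27.7 FPKM for brown fat cell genes. The part of these genes in the differences was not tested.

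**Figure D5:**
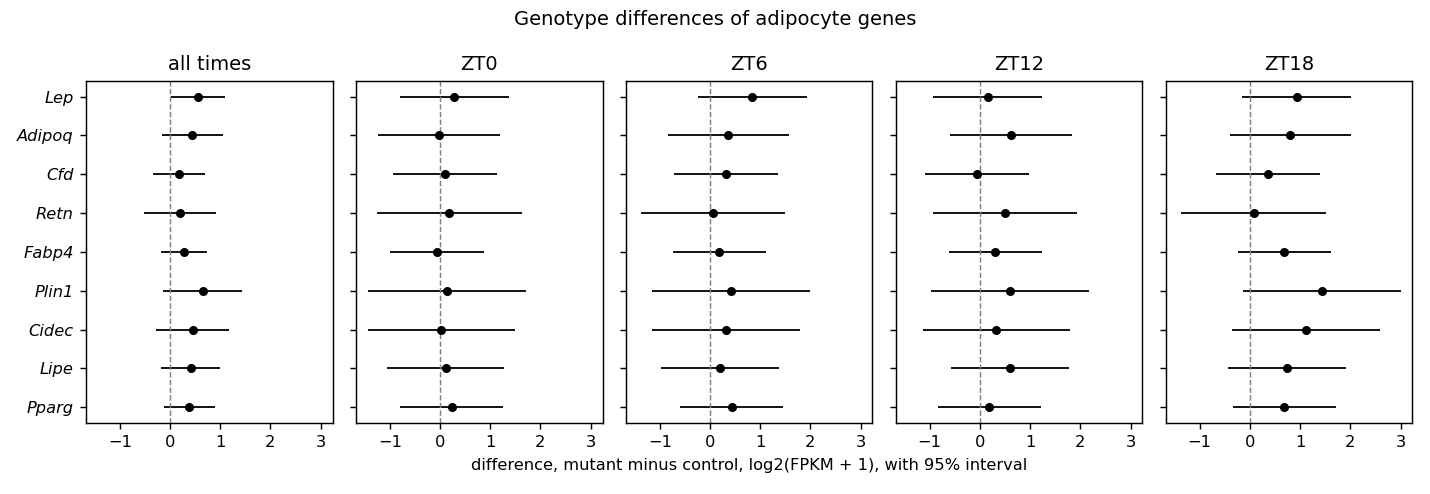
Difference of each of the 9 genes, mutant minus control, on log2(FPKM + 1) with its 95% interval from limma, over all times and at each Zeitgeber time. The points over all times lie between 0.18 and 0.65, and each interval holds 0 except that of Lep over all times.

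At single times no gene of the 9 passed either, and the groups of 4 overlapped for each gene at each time. At ZT0, where 0.0167% of genes tested passed, 7 of 9 means were higher in mutants (47.5% of all genes tested), with log2 differences from -0.06 for Fabp4 to 0.29 for Lep. At ZT6, where 0.0167% passed, 9 of 9 means were higher in mutants (42.5% of all genes), and the largest difference was that of Lep at 0.85 (limma adjusted p = 0.532). At ZT12, where 0.0251% passed, 8 of 9 were higher (63.6% of all genes), with the largest difference for Adipoq at 0.62 (limma adjusted p = 0.598) and Cfd at -0.07. At ZT18, where 0.0167% passed, 9 of 9 were higher (44.3% of all genes), with differences of 1.44 for Plin1 and 0.08 for Retn (limma adjusted p = 0.9995 for each). No gene had an unadjusted p under 0.05 at a single time, a level reached by 8.46% (ZT0), 10.4% (ZT6), 17.4% (ZT12) and 2.88% (ZT18) of all genes. Of all genes tested, the groups did not overlap for 2.61% (ZT0), 12.1% (ZT6), 7.4% (ZT12) and 2.51% (ZT18).

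Several of these single-time directions rested on 1 mouse. Without mutant ZT0 library 1, the difference at ZT0 became -0.19 for Lep, -0.43 for Plin1 and -0.52 for Cidec. Without mutant ZT12 library 2, the difference of Adipoq at ZT12 had its lowest adjusted p of any setting, 0.132 in limma. Over all times, the difference of Lep stayed between 0.44 and 0.70 and that of Plin1 between 0.51 and 0.87 whichever library was left out or setting changed. The small differences of Cfd and Retn moved more, from 0.07 to 0.32 for Cfd and from 0.08 to 0.43 for Retn. A test of whether the genotype difference changed with time (F test, limma) gave adjusted p-values of 0.825 or more for the 9 genes, with 0% of all genes passing, and no unadjusted p under 0.05, which 14.1% of all genes reached.

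Daily variation of the 9 genes was not detectable at this spread. Among mutants, the F test between the 4 times passed for none of the 9, against 3.89% of all genes tested (smallest adjusted p = 0.607, for Lipe, limma). Among controls it passed for none, against 5.70% (smallest adjusted p = 0.733, for Pparg, limma). The 24 h cosine fit likewise passed for none in mutants, against 3.92%, and for none in controls, against 5.55%. No unadjusted p was under 0.05, against 21.9% of all genes for time in mutants, 22% for time in controls, 14.4% for the cosine in mutants and 19.4% for that in controls. Fitted amplitudes, as log2 from mean to peak, lay between 0.14 (Adipoq) and 0.48 (Lipe) in mutants and between 0.08 (Fabp4) and 0.37 (Plin1) in controls, below the SD between mice of each gene.

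For the summed level of genes that receive or pass on the signals of fat cells, no relation with Adipoq was detected. The 11 genes, of receptors for secreted proteins of fat cells and of the signalling behind them, had sums between 270 and 346 FPKM. These sums had rho 0.101 and r 0.105 with Adipoq (within-group permutation, adjusted p = 0.682 and 0.723). They weigh high genes most, such as Adipor1 with a mean of 114 FPKM, and say little of low ones such as Lepr with 1.97 FPKM. None of the 11 passed between genotypes over all times (0.0251% of all genes did), and 7 of 11 had higher means in mutants (51.3% of all genes). Adipor1, the main adiponectin receptor of muscle, was at 114 ± 17.1 FPKM in mutants and 113 ± 10.4 FPKM in controls (SD, n = 16 each). The leptin receptor gene Lepr was at 2.04 ± 0.684 FPKM in mutants and 1.89 ± 0.9002 FPKM in controls. Its F test of time passed in controls (limma adjusted p = 0.0367) but not in mutants (limma adjusted p = 0.152). For Jak2, the kinase that leptin receptors use, that test passed in mutants (limma adjusted p = 0.0304) but not in controls (limma adjusted p = 0.108). Each was the only one of the 11 to pass there, against 5.7% of all genes in controls and 3.89% in mutants. The test of whether the genotype difference changed with time passed for neither (F test, limma adjusted p = 0.556 and 0.649).

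For the summed level of genes that act beside PPARG, no relation with Adipoq was detected. Of 14 such genes, 13 were tested. None passed between genotypes over all times (0.0251% of all genes did), and 4 of the 13 had higher means in mutants (51.3% of all genes). The sum of the 14 had rho 0.196 and r 0.240 with Adipoq (within-group permutation, adjusted p = 0.524 and 0.552). It weighs high genes most, such as Rxra with a mean of 48.2 FPKM, and says little of lower ones such as Cebpa with 9.15 FPKM. Cebpa, named above as one of the genes most like Adipoq (rho 0.946), belongs to this list and to the further fat cell genes. It was at 10.7 ± 6.32 FPKM in mutants and 7.62 ± 3.66 FPKM in controls (SD, n = 16 each). Its relatives Cebpb and Cebpd both changed with time, in mutants (limma adjusted p = 0.00455 and 0.0201) and in controls (limma adjusted p = 0.0382 and 0.0432).

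Most, but not all, of the genes of fatty acid synthesis listed had a rho above 0.5 with Adipoq. The sum of 12 such genes lay between 213 and 1990 FPKM in mutants and between 192 and 1094 FPKM in controls, with rho 0.869 and r 0.885 (within-group permutation, adjusted p = 3.75e-05 for both; r 0.852 without the 2 extreme libraries). On average 53.8% of this sum was Scd1, whose own rho with Adipoq was 0.915. Taken singly, 8 of the 12 genes had a rho of at least 0.5, among them Slc25a1 (0.857) and Fasn (0.835), whereas Scd2 (0.0792), Me1 (0.170), Srebf1 (0.173) and Mlxipl (0.367) did not. None of the 12 passed between genotypes over all times, where 0.0251% of all genes tested did. The mean of each was higher in mutants (51.3% of all genes), with a median log2 difference of 0.43. Most of the 12 moved with Adipoq from mouse to mouse, so these directions are not independent. Scd1, a fatty acid desaturase, was at 482 ± 442 FPKM in mutants and 198 ± 191 FPKM in controls, and Fasn, the fatty acid synthase, at 89.4 ± 92.2 FPKM in mutants and 35.1 ± 38.6 FPKM in controls (SD, n = 16 each). Time passed for Scd2 in both genotypes (limma adjusted p = 0.00144 in mutants and 0.00221 in controls). For Srebf1 it passed in controls (limma adjusted p = 0.00150) but not in mutants (limma adjusted p = 0.169). The test of whether the genotype difference changed with time did not pass for Srebf1 (F test, limma adjusted p = 0.322).

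Further genes of fatty acid uptake, binding and droplets, several of which serve muscle fibres, had a mixed pattern. The sum of 13 such genes, some of them relatives of Fabp4, Plin1 or Cidec, lay between 554 and 1233 FPKM. It had rho 0.851 and r 0.873 with Adipoq (within-group permutation, adjusted p = 3.75e-05 for both), and r was 0.821 without the 2 extreme libraries. On average 26.1% of the sum was Lpl (rho 0.607) and 23.6% was Cd36 (rho 0.737), neither of them a relative of these genes. This list shares Cidea (rho 0.871) with the brown fat cell genes and Plin4 (rho 0.784) with the 22 further fat cell genes, so its sum is not separate from theirs. Single genes ran from a rho of -0.227 for Fabp3 to 0.877 for Mgll, a lipase of monoglycerides, with a median of 0.607 over the 13. Of the 12 tested, 9 had higher means in mutants over all times (51.3% of all genes) and none passed (0.0251% of all genes did). Fabp3, the fatty acid binding protein of muscle, was at 91.8 ± 19.6 FPKM in mutants and 107 ± 26.2 FPKM in controls (SD, n = 16 each). Plin5, the perilipin of muscle and heart droplets, was at 12.2 ± 3.91 FPKM in mutants and 10.6 ± 4.41 FPKM in controls, and Pnpla2, the lipase that takes the first fatty acid from triglyceride, at 102 ± 27.3 FPKM in mutants and 92.8 ± 17.2 FPKM in controls. Among the 22 further fat cell genes, 21 means over all times were higher in mutants (51.3% of all genes tested), with a median log2 difference of 0.31. The sum of the 22 moved with Adipoq from mouse to mouse, so these directions need not be independent. None passed between genotypes over all times (0.0251% of all genes did) or at a single time (0.0251% or fewer). The lipid enzyme gene Agpat2 had the largest difference there, with 25.3 ± 23.3 FPKM in mutants and 11.9 ± 9.81 FPKM in controls (log2 difference 0.79, limma adjusted p = 0.758), and Gpd1, the glycerol phosphate dehydrogenase that muscle also expresses, had the smallest adjusted p (285 ± 44.8 FPKM in mutants and 239 ± 31.2 FPKM in controls, limma adjusted p = 0.555).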

How the data were processed

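RNA of gastrocnemius muscle from 32 mice was sequenced by the authors from stranded mRNA libraries, 1 per mouse, in 4 pools of 8 samples, per the labels' protocols; the sources used here do not assign samples to pools. The deposited values are FPKM per gene and library, made by the authors on build mm10, per the submitters' processing notes; of aligner, quantifier and annotation, none is named there. Starts in the table are 0-based and were raised by 1.

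FPKM values were taken as log2(FPKM + 1), a scale that understates changes of low genes, and fitted with limma 3.58.1 (R 4.3.3): 8 group means, a trended prior, residual degrees of freedom of 24 plus 3.37 from the prior, and calls at an adjusted p under 0.05. Absolute depth is unknown, so no count test or counting interval was made. Pairs of genes were compared over group-centred values with permutations within groups. The 9 genes, the gene lists and the rule for the genes most like Lep and Adipoq (highest rho) were chosen with earlier results of these data known. One symbol in the lists, Trarg1, stood in the table under its older name Tusc5. Krt5, Krt14, Krt1, Dsg1a, Ighm, Trac and Ccl21a were not analysed here.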

Additional observations from a re-analysis of the deposited data

Results flagged for a closer look

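In 1 of the 72 groups of 4 formed by the 9 genes, the 2 genotypes and the 4 times, a single library lay far from the other 3. Retn, the gene of resistin, was at 18.6 FPKM in mutant ZT6 library 1 and at 8.30, 8.67 and 9.06 FPKM in the other mutants at that time, so that the gap to the nearest of the others took up 0.926 of the range. Gaps were flagged above a cut-off that chance alone passes in about 1 in 20 groups, and this gap lay above that cut-off. The other 8 genes showed no gap past the cut-off in that group. The same library was nevertheless the highest of that group for all 9 genes, with ranks from 3 to 9 among all 32 libraries. Retn thus stood apart there by the width of the gap, and not by being high.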

How the results depend on the processing

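None of the 9 genes passed an adjusted p of 0.05 in any of 10 comparisons under 8 other settings or without any of the 32 libraries (smallest limma adjusted p = 0.132, for Adipoq at ZT12 without mutant ZT12 library 2), and all 36 pairs passed under each alternative tried for pairs. The pseudocounts of 0.1 and 0.5 FPKM and the left-out libraries were tried for pairs after the data were seen. With the minimum mean of 5 FPKM, Lep was not among the genes tested. Directions at single times turned round easily. With array weights the difference was 0.27 for Fabp4 at ZT0 and -0.019 for Retn at ZT18. With 1 library left out, the difference at ZT0 ran from -0.19 to 0.68 for Lep, from -0.51 to 0.18 for Fabp4, from -0.43 to 0.59 for Plin1 and from -0.52 to 0.49 for Cidec. It ran from -0.38 to 0.50 for Cfd at ZT12 and from -0.38 to 0.45 for Retn at ZT18. The cause was not tested.

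Background counts of genes passed moved more. With a minimum mean of 5 FPKM, which leaves fewer genes tested, 1 gene passed between genotypes over all times, 0 at each of ZT0, ZT6, ZT12 and ZT18, and 433 for time in controls, 390 for the cosine in controls and 287 for that in mutants. With array weights the counts were 1 at ZT0, 232 at ZT6, 10 at ZT12, 42 for genotype by time, 2855 for time in controls, 752 for the cosine in mutants and 2233 for that in controls. With quantile normalization 0 passed at ZT6 and 0 at ZT18, and with only the compared groups in the fit 0 passed at ZT12 and 1 at ZT18. With 1 library left out, counts ran from 1 to 2 at ZT6, from 2 to 447 at ZT12 (447 without mutant ZT12 library 3), from 0 to 3 at ZT18 (0 without mutant ZT18 library 2), from 0 to 93 for genotype by time (93 without mutant ZT0 library 3), from 292 (without mutant ZT18 library 3) to 982 (without mutant ZT0 library 3) for time in mutants, and from 404 (without control ZT0 library 1) to 1047 (without mutant ZT0 library 2) for time in controls. No paired analysis was possible because the library numbers do not link mice of different groups. Depth is unknown and gives no limit for single values.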
